A study of Arabidopsis thaliana with 12 samples.

Results

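Plant cells enlarge only as fast as their wall yields, and 2 protein families act directly on that wall. Xyloglucan endotransglucosylase/hydrolases (XTH) cut xyloglucan, the polymer that coats and tethers cellulose microfibrils, and rejoin the cut end to another xyloglucan chain or to water. Expansins loosen the contacts between wall polymers without cutting them, most strongly in an acidified wall, and fall into alpha-expansins (EXPA), beta-expansins (EXPB) and the expansin-like genes (EXLA and EXLB). The 45 genes described here are 24 XTH genes and 21 expansin genes (15 alpha-expansins, 2 beta-expansins and 4 expansin-like genes), a list given by gene identifier, out of 20869 Arabidopsis genes with a value in these data. All 45 identifiers matched a gene of that name in RefSeq's TAIR10.1 annotation.

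The 12 libraries hold poly-A RNA of whole Arabidopsis thaliana seedlings, all Col-0, in 4 genotypes with 3 replicates each: WT, the mutant smxl5-1, the double mutant smxl4-1 smxl5-1 and the mutant smax1-2. SMXL4, SMXL5 and SMAX1 are related proteins: SMXL4 and SMXL5 are known to be needed for phloem formation, and SMAX1 is a repressor that karrikin signalling removes. Seedlings were 7 days old, grown at 21 °C with 12 h of light and 12 h of dark, and each replicate pooled 15 of them. Whether replicates came from separate sowings is not stated, so every p-value measures the spread between these samples. Fewer cells of a type and less RNA per cell cannot be told apart in whole seedlings. The double mutant is set against the smxl5-1 single mutant and not against smxl4-1, of which no library is analysed here.

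The mutated genes' own transcripts separated the genotypes only in part. SMXL5 was at 39.98 to 50.6 FPKM (fragments per kilobase of transcript, scaled to library size) in smxl5-1, 9.00 to 18.2 in the double mutant and 3.47 to 5.29 in the 6 other libraries, so the allele's carriers were higher. SMAX1 was at 15.1 to 18.2 FPKM in smax1-2 and 21.3 to 34.6 elsewhere. SMXL4 was at 2.75 to 4.85 FPKM in the double mutant, inside the range of 1.81 to 16.1 of the other libraries, so its level does not check the smxl4-1 label. Genotypes below are those of the labels. The 5 leaf and photosynthesis markers summed to 51386 to 57097 FPKM in WT, 46841 to 51608 in smxl5-1, 54112 to 57606 in the double mutant and 53615 to 56769 in smax1-2. The 10 root markers summed to 171 to 487 FPKM over all libraries, of which IRT1 alone was at 54.0 to 311 FPKM. Of the root markers, WOX5 was not listed in smxl5-1 replicate 2 and COBL9 was not in smax1-2 replicate 3, and every other was listed in all libraries.

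Of the 45 genes, 38 were listed in all 12 libraries, 5 in some and 2 in none. XTH25 and EXPA2, which is known from germinating seeds, were the 2 that were listed nowhere. EXLA3 was listed only in WT replicate 1, at 7.10 FPKM, and was not tested. That value rests on 1 piece over 15.9% of the reference, and is 2.75 FPKM with effective lengths. The other 42 genes, 23 XTH and 19 expansins, passed the filter of at least 1 FPKM in at least 3 libraries. Among XTH genes the highest means over the 12 libraries were those of XTH7 (562 FPKM), XTH4 (338 FPKM) and XTH24 (181 FPKM). Among expansins they were those of EXPA1 (253 FPKM), EXPA6 (89.2 FPKM) and EXPB3 (75.4 FPKM).

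XTH17, XTH18 and XTH19 belong to a group of closely related XTH genes known mainly from roots, and 2 of them had the largest called differences. The 250 bases before each gene's annotated start are shown because XTH17 and XTH18 hold part of theirs in common. They are printed 5′ to 3′ on the gene's strand, from RefSeq's TAIR10.1 genome. Capitals in XTH17 and XTH18 mark the longest run that both hold, and capitals in XTH19 mark its longest run in common with XTH18.
XTH17, chr1:24256804-24257053, plus strand: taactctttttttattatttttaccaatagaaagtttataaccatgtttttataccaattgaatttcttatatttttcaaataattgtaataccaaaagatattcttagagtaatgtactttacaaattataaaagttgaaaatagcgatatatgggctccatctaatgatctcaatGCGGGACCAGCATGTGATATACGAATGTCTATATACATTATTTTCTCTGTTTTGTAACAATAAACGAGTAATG
XTH18, chr4:14827212-14827461, minus strand: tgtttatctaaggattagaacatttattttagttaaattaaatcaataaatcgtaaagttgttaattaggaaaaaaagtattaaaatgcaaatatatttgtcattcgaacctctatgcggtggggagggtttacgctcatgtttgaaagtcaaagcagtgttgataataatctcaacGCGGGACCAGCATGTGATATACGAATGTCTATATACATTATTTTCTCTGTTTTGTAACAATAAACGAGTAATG
XTH19, chr4:14830225-14830474, minus strand: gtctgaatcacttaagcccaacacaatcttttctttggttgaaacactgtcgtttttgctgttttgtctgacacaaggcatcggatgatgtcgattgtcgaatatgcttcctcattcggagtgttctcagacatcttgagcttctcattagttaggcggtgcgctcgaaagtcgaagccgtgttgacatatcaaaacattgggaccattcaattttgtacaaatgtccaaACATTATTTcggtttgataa
XTH17 and XTH18 share the same 73 bases immediately before the start, from position -73 to -1. That run reaches the end of the window, and whether it goes on past the start was not examined. The longest run shared by any other pair of XTH genes or pair of expansin genes in this window was 14 bases. The coding sequences were also close, at 85.6% identity for XTH17 and XTH18, 87.6% for XTH18 and XTH19, and 80.8% for XTH17 and XTH19. Their longest identical coding stretches were 47, 68 and 51 bases respectively. How the authors' processing shared out reads that match more than 1 of these copies is not given in the sources used here, so the split among XTH17, XTH18 and XTH19 is uncertain.

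The data showed most of the called differences between the double mutant and smxl5-1, and mostly in XTH genes. Of the 42 genes tested, 11 were called there (3 higher and 8 lower in the double mutant), or 26.2%. Of all 19656 genes tested, 2.99% were called there, 1.2% higher and 1.8% lower. The members were chosen with earlier results of these data known, so the larger share among them is no independent result. XTH genes made up 9 of the 11, 1 higher and 8 lower, out of 23 tested. The 19 expansins gave 2 calls, both higher. A call is an adjusted p under 0.05 from limma's moderated test on log2(FPKM + 1), adjusted by Benjamini-Hochberg over all genes tested. Fold changes are on that log2 scale, which understates the change of low genes. A gene's value adds up its assembled pieces, each weighted by its length relative to the reference transcript. The named alternative, effective lengths, leaves out of each length the positions where a whole fragment cannot start. "Lost without" a library means not called in a fit that left out that library alone, and with several libraries named it means each of those fits. No call held when FPKM were summed with no weight for length. Which calls held with the replicate number as a block in the fit is given near the end, not gene by gene. Gene positions are those of TAIR10.1. The median log2 fold change was -0.44 over the XTH genes, -0.03 over the expansins and -0.01 over all genes, with 19 of 23 XTH genes below 0 and 4 above. The sums of the leaf and photosynthesis markers did not overlap between smxl5-1 and the double mutant. Taken singly, 2 of the 5 markers did not overlap, both higher in the double mutant. The median log2 difference over the 5 was 0.22 (4 higher and 1 lower in the double mutant, none called). The part of these markers in the differences above was not tested.

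The other comparisons gave fewer calls. The double mutant against WT called 3 members (1 higher, 2 lower), against 1.13% of all genes (0.631% higher, 0.504% lower). Against smax1-2 it called 5 (2 higher, 3 lower), all XTH genes, against 1.55% of all genes (0.809% higher, 0.738% lower). The mutant smxl5-1 against WT called 1, higher, against 0.351% of all genes (0.249% higher, 0.102% lower). None was called for smax1-2 against WT, where limma called 0.0356% of all genes (0.0153% higher, 0.0204% lower). None was called for smxl5-1 against smax1-2 either, where it called 0.224% (0.142% higher, 0.0814% lower). At an unadjusted p under 0.05 those last comparisons gave 10 and 22 members, against 6.77% and 11.8% of all genes. Across the 6 comparisons, 14 genes were called at least once, 12 XTH genes and 2 expansins. The moderated F test over the 4 genotypes called 9 members, all of them XTH genes, against 2.06% of all genes. These comparisons share libraries, so their results are not independent of each other.

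The counts moved with single libraries. For the double mutant against smxl5-1, the 11 calls became 5, 3 and 3 without smxl5-1 replicates 1, 2 and 3, 3 and 2 without double-mutant replicates 2 and 3, and 6 without smax1-2 replicate 1. The count over all genes, 588, became 192 to 526 over the 12 such fits. For the double mutant against WT, the 3 became 1 without WT replicate 1, 8 and 5 without smxl5-1 replicates 2 and 3, and 6 and 5 without smax1-2 replicates 2 and 3. Against smax1-2, the 5 became 3 without smxl5-1 replicate 1 and 0 to 2 without any library of WT, the double mutant or smax1-2. The 1 for smxl5-1 against WT became 2 without double-mutant replicate 3. It became 0 without WT replicate 1 or 2, smxl5-1 replicate 1 or 3, double-mutant replicate 2 or smax1-2 replicate 1. The count stayed at 1 without WT replicate 3, smxl5-1 replicate 2 or smax1-2 replicate 2 or 3, with another gene called in place of XTH31. That gene was XTH18, XTH6 (lower), XTH19 and XTH19 in turn. The 0 for smax1-2 against WT became 1 without smxl5-1 replicate 2, and that for smxl5-1 against smax1-2 became 1 without WT replicate 1 or 3 or smxl5-1 replicate 2. The 9 of the F test became 2 to 5 without any WT library, smxl5-1 replicate 1 or 3, double-mutant replicate 2 or 3, or smax1-2 replicate 1.

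**Figure D1:**
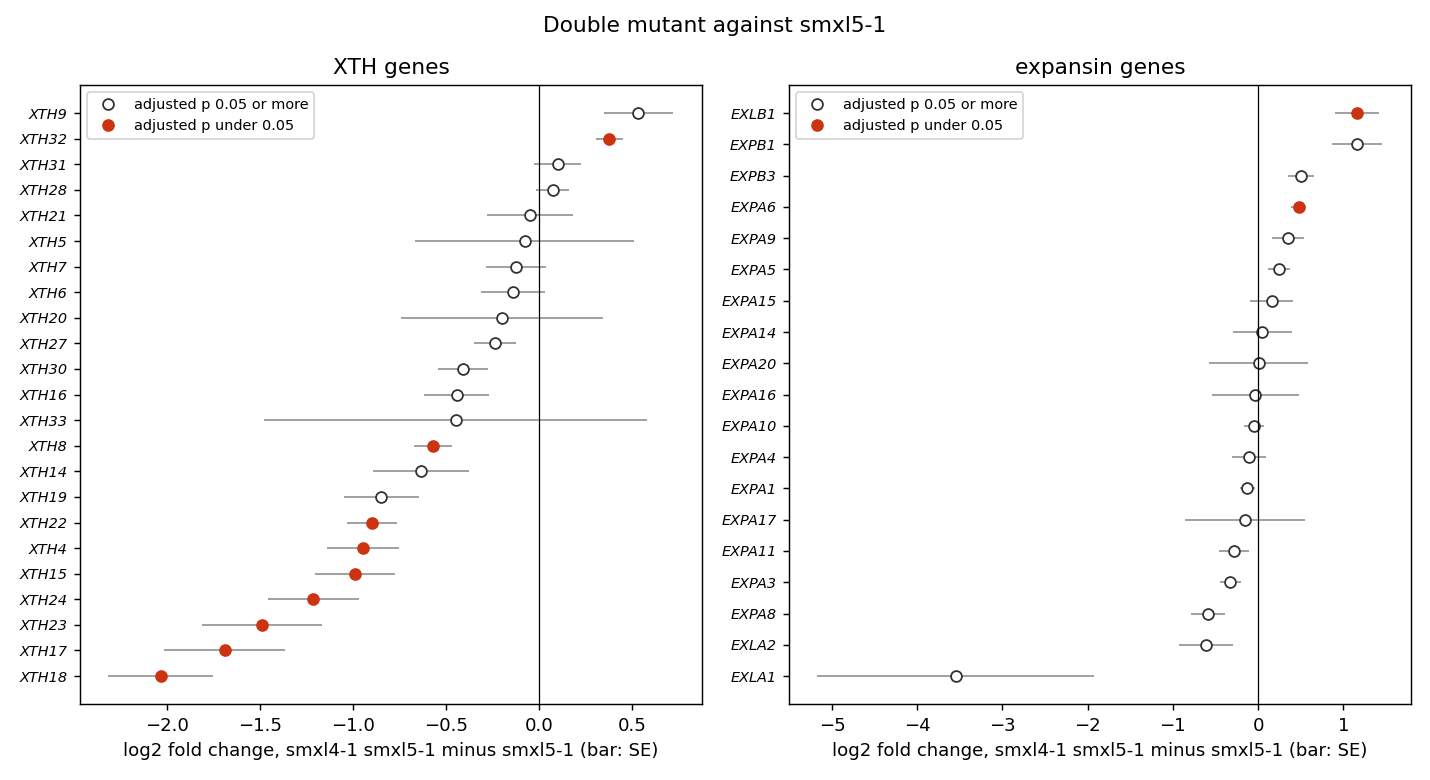
Log2 fold change of each tested XTH gene (left) and expansin gene (right) in the double mutant smxl4-1 smxl5-1 minus smxl5-1, on log2(FPKM + 1). Points are estimates from 3 libraries a group, bars are standard errors, and filled points have an adjusted p under 0.05. Most XTH points lie left of 0, from XTH18 at -2.03 upwards, while the expansins spread on both sides. The value of EXLA1 rests on libraries that do not list it.

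XTH17 (AT1G65310, chromosome 1, 24257054 to 24258506) was at 44.3, 38.3 and 37.8 FPKM in WT replicates 1 to 3 and 39.4, 70.7 and 33.1 for smxl5-1. It was at 20.8, 7.97 and 14.1 FPKM in the double mutant and 18.3, 19.9 and 15.2 for smax1-2. With effective lengths the value of smxl5-1 replicate 2 is 54.3 FPKM. Every library of the double mutant and of smax1-2 was below every library of WT and smxl5-1. The gene fell in the double mutant against smxl5-1 by 1.69 on the log2 scale (SE 0.326, adjusted p = 0.0257). Relative to WT, its log2 difference was -1.52 for the double mutant (adjusted p = 0.0647) and -1.14 for smax1-2 (adjusted p = 0.573), and neither was called. With effective in place of plain lengths, the adjusted p against WT was 0.0272. The call against smxl5-1 was lost without smxl5-1 replicate 1 or 2 or double-mutant replicate 2 or 3, with adjusted p from 0.0545 to 0.0814.

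XTH18 (AT4G30280, chromosome 4, 14825757 to 14827211) was at 15.5, 19.9 and 41.6 FPKM in WT libraries and 57.9, 62.8 and 61.9 for smxl5-1. It was at 15.1, 11.8 and 15.7 FPKM in the double mutant and 21.6, 20.1 and 18.5 for smax1-2. The 3 smxl5-1 libraries stood above all 9 others. It fell in the double mutant against smxl5-1 by 2.03 (SE 0.28, adjusted p = 0.00634), the largest called change among the members. That call held in each of the 12 fits that left out 1 library, with adjusted p from 0.000241 to 0.0257. Against WT, smxl5-1 was higher by a log2 of 1.34, which was not called (adjusted p = 0.0817). In WT replicate 3 the gene was assembled in 2 pieces, and its value there is 41.6 FPKM by plain length and 30.7 FPKM by effective length. With effective lengths the difference was 1.48 (adjusted p = 0.0177), and without WT replicate 3 it was 1.74 (adjusted p = 0.00216). Against smax1-2, smxl5-1 was higher by 1.56 (adjusted p = 0.0608), and called with effective lengths (adjusted p = 0.0171) and, with plain lengths, without WT replicate 1 (adjusted p = 0.0486) or 3 (adjusted p = 0.00297).

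XTH19 (AT4G30290, chromosome 4, 14828712 to 14830224) lies next to XTH18 on the same strand. It was at 19.8, 20.9 and 24.4 FPKM in WT libraries and 43.5, 51.2 and 51.2 for smxl5-1. It was at 28.3, 32.1 and 20.4 FPKM in the double mutant and 23.2, 29.2 and 17.1 for smax1-2. With effective lengths the value of smax1-2 replicate 2 is 22.6 FPKM. The smxl5-1 libraries were again above all 9 others. The F test over genotypes called it (adjusted p = 0.0414), and no pair of genotypes did. The log2 difference was 1.13 for smxl5-1 against WT (adjusted p = 0.0538), 1.07 for smxl5-1 against smax1-2 (adjusted p = 0.0739) and -0.85 for the double mutant against smxl5-1 (adjusted p = 0.0533). With effective lengths all 3 were called, with adjusted p of 0.0209, 0.0218 and 0.0213. With plain lengths, smxl5-1 against WT was also called without double-mutant replicate 3 (adjusted p = 0.0362), smax1-2 replicate 2 (0.0470) or smax1-2 replicate 3 (0.0438). The double mutant against smxl5-1 was called without smax1-2 replicate 2 (0.0427) or 3 (0.0371).

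XTH22, also named TCH4 because touch induces it, and inducible by brassinosteroid, had its lowest values in the double mutant. XTH22 (AT5G57560, chromosome 5, 23307006 to 23308680) was at 40.4, 36.2 and 40.7 FPKM in WT libraries and 29.9, 35.1 and 36.9 for smxl5-1. It was at 20.9, 14.6 and 18.1 FPKM in the double mutant and 29.96, 25.8 and 30.8 for smax1-2. The highest double-mutant library was below the lowest of the 9 others. The gene fell by 1.10 against WT (SE 0.133, adjusted p = 0.00419), by 0.90 against smxl5-1 (adjusted p = 0.00864) and by 0.67 against smax1-2 (adjusted p = 0.0394). The calls against WT and smxl5-1 held whichever of the 12 libraries was left out, with adjusted p from 0.00542 to 0.0249 and from 0.0100 to 0.0348. The call against smax1-2 was lost with quantile normalization, with median-of-ratios scaling, and without any library other than smxl5-1 replicates 1 and 2 and double-mutant replicate 1 (adjusted p from 0.0510 to 0.141).

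XTH23 (AT4G25810, chromosome 4, 13128394 to 13129927), the member whose coding sequence is closest to XTH22 at 79.2% identity, was at 9.59, 13.2 and 21.4 FPKM in WT libraries and 29.2, 28.3 and 38.9 for smxl5-1. It was at 12.8, 9.06 and 10.5 FPKM in the double mutant and 14.8, 8.84 and 21.2 for smax1-2. With effective lengths the value of double-mutant replicate 3 is 6.28 FPKM. As for XTH18 and XTH19, the smxl5-1 libraries were above all others. It fell in the double mutant against smxl5-1 by 1.49 (SE 0.323, adjusted p = 0.0380). The log2 differences of 1.13 for smxl5-1 against WT (adjusted p = 0.197) and 1.12 for smxl5-1 against smax1-2 (adjusted p = 0.228) were not called. The call was lost without any library of smxl5-1 or the double mutant, WT replicate 2 or smax1-2 replicate 1, with adjusted p from 0.0597 to 0.116.

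XTH24, also named MERI5, had the highest level of the genes from XTH17 to XTH25 and lies near XTH18 and XTH19 (AT4G30270, chromosome 4, 14819192 to 14820595). It was at 194, 179 and 244 FPKM in WT libraries and 229, 222 and 241 for smxl5-1. It was at 115, 115 and 73.2 FPKM in the double mutant and 193, 125 and 246 for smax1-2. All double-mutant libraries were below the 9 others, though its highest and the lowest of smax1-2 were close. It fell against smxl5-1 by 1.21 (SE 0.245, adjusted p = 0.0313), and the difference of -1.04 against WT was not called (adjusted p = 0.0898). Without smax1-2 replicate 2 it was called against WT (adjusted p = 0.0419) and, at -1.13, against smax1-2 (adjusted p = 0.0497). The call against smxl5-1 was lost without any smxl5-1 library, double-mutant replicate 2 or 3, or smax1-2 replicate 1, with adjusted p from 0.0507 to 0.103.

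Summed over the listed genes from XTH17 to XTH25, the level was 314 to 418 FPKM in WT, 442 to 483 in smxl5-1, 161 to 230 in the double mutant and 239 to 355 in smax1-2. The double mutant's range lay below those of the other 3 genotypes, and that of smxl5-1 lay above them. The remaining genes of the group were low and gave no call: XTH20 was at 2.56 to 13.3 FPKM (1.77 to 8.49 with effective lengths) and XTH21 at 2.85 to 5.82 FPKM over the 12 libraries. The 10 root markers summed to 171 to 260 FPKM in WT, 207 to 487 in smxl5-1, 238 to 305 in the double mutant and 206 to 310 in smax1-2. Their highest sum and the highest XTH17 value were both in smxl5-1 replicate 2. IRT1 alone gave 311 FPKM of that sum of 487. CASP1, COBL9, IRT1, PHT1;1, TIP2;3, EXPA7 and EXPA18 each had their highest value in that library, and SCR, SHR and WOX5 did not. None of the 10 was called in any comparison, and the part of root content in these differences was not tested. By gene number, XTH18, XTH19 and XTH24 lie near the mutated gene SMXL4 (AT4G29920) on chromosome 4. XTH22 (AT5G57560) lies between SMXL5 (AT5G57130) and SMAX1 (AT5G57710) on chromosome 5. The part of these positions in the differences was not tested.

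**Figure D2:**
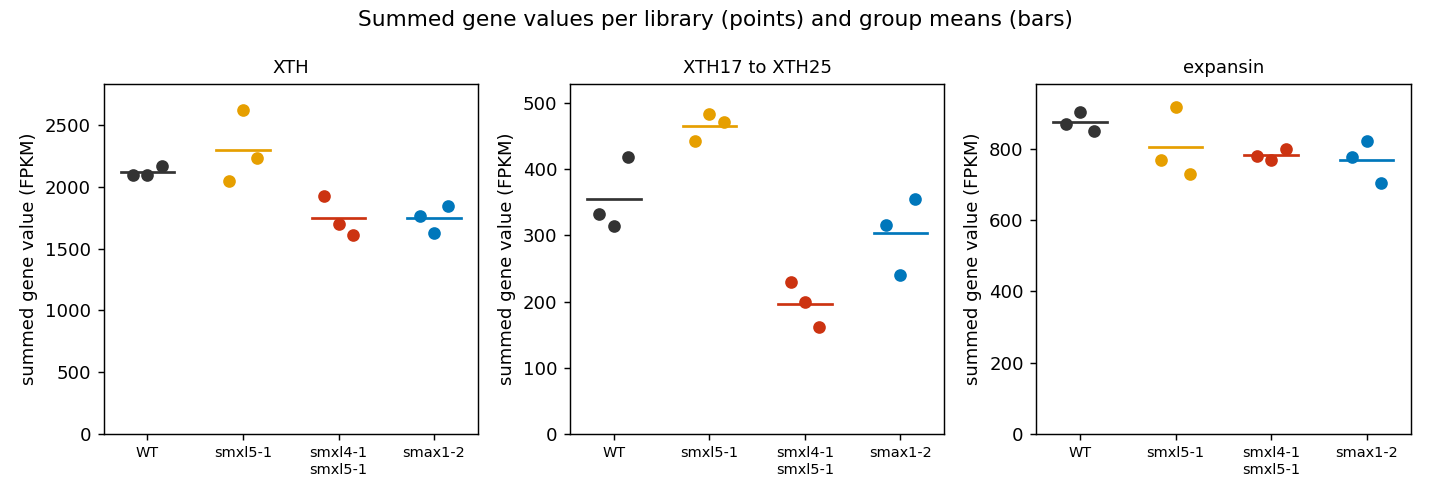
Summed gene value in FPKM per library (points) and the mean of the 3 libraries of each genotype (bars), for all 24 XTH genes, for XTH17 to XTH25 and for the 21 expansins. Vertical axes start at 0. The XTH17 to XTH25 sums are at 161 to 230 in the double mutant and at 442 to 483 in smxl5-1. The expansin sums are at 851 to 904 in WT and 730 to 917 in smxl5-1. For the double mutant they are at 770 to 799 and for smax1-2 at 703 to 823.

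Among the other XTH genes, XTH4 (AT2G06850, chromosome 2, 2763449 to 2765743), known from elongating and vascular tissue, was at 411, 402 and 388 FPKM in WT libraries and 351, 546 and 445 for smxl5-1. It was at 289.96, 223 and 184 FPKM in the double mutant and 283, 226 and 311 for smax1-2. The double mutant and smax1-2 were below WT and smxl5-1 in every library. It fell in the double mutant against smxl5-1 by 0.95 (SE 0.195, adjusted p = 0.0327), while -0.81 against WT was not called (adjusted p = 0.0949). The call was lost with quantile normalization. It was also lost without any WT library, smxl5-1 replicate 2 or 3, double-mutant replicate 2 or 3, or smax1-2 replicate 1 (adjusted p from 0.0517 to 0.111).

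XTH7, the member with the highest level, gave no call. It was at 602, 628 and 549 FPKM in WT libraries, 528, 819 and 606 for smxl5-1, 678, 539 and 555 for the double mutant and 455, 362 and 424 for smax1-2. All smax1-2 libraries were below the 9 others, and the F test over genotypes gave an adjusted p of 0.164.

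XTH8 (AT1G11545, chromosome 1, 3878495 to 3880391) was at 44.3, 41.1 and 39.5 FPKM in WT libraries and 35.4, 45.1 and 43.0 for smxl5-1. It was at 27.9, 26.7 and 27.2 FPKM in the double mutant and 29.7, 30.1 and 25.3 for smax1-2. The libraries fell into a higher pair of genotypes and a lower pair with no overlap. It fell in the double mutant by 0.59 against WT (SE 0.104, adjusted p = 0.0267) and by 0.57 against smxl5-1 (adjusted p = 0.0212). The smax1-2 difference of -0.54 from WT was close in size and not called (adjusted p = 0.219). The call against WT was lost without any library of either group (adjusted p from 0.0648 to 0.119). That against smxl5-1 was lost with quantile normalization and without replicate 2 or 3 of either group (adjusted p from 0.0510 to 0.0765).

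XTH6 (AT5G65730, chromosome 5, 26298728 to 26300529) was at 157, 125 and 137 FPKM in WT libraries and 137, 141 and 142 for smax1-2. It was at 79.5, 117 and 68.9 FPKM in smxl5-1 libraries and 87.0, 68.1 and 80.3 for the double mutant. Both genotypes that carry smxl5-1 were below both that do not, in every library. The double mutant was lower than smax1-2 by 0.83 (SE 0.173, adjusted p = 0.0482), a call lost with quantile normalization and with median-of-ratios scaling. It was also lost without any library other than smxl5-1 replicates 2 and 3 (adjusted p from 0.0661 to 0.145). The difference of -0.83 from WT was not called (adjusted p = 0.0586). It was called with effective lengths (adjusted p = 0.0436) and without smxl5-1 replicate 2 (0.00921) or 3 (0.0388). Without smxl5-1 replicate 2, smxl5-1 itself was lower than WT by 0.90 (adjusted p = 0.0331) and than smax1-2 by 0.91 (adjusted p = 0.0409).

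XTH16 (AT3G23730, chromosome 3, 8550037 to 8551403) showed the same order. It was at 62.2, 59.7 and 74.3 FPKM in WT libraries, 50.01, 39.6 and 56.97 for smxl5-1, 27.7, 38.4 and 41.3 for the double mutant and 59.5, 75.6 and 69.01 for smax1-2. Both genotypes that carry smxl5-1 were again below both that do not, in every library. The double mutant overlapped smxl5-1. It was lower than smax1-2 by 0.92 (SE 0.175, adjusted p = 0.0333). Against WT the difference was -0.86 (adjusted p = 0.0501), and it was called with effective lengths (0.0310), quantile normalization (0.0329), median-of-ratios scaling (0.0219) and without smxl5-1 replicate 2 (0.0337). The call against smax1-2 was lost without any library of the double mutant or smax1-2, WT replicate 1 or 2, or smxl5-1 replicate 1 (adjusted p from 0.0513 to 0.113).

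XTH15 (AT4G14130, chromosome 4, 8137020 to 8138392), known as XTR7 and induced by shade, was at 19.0, 13.5 and 24.4 FPKM in WT libraries and 23.0, 23.6 and 22.1 for smxl5-1. It was at 9.17, 15.2 and 9.53 FPKM in the double mutant and 20.8, 17.7 and 19.4 for smax1-2. Its double-mutant values were below those of smxl5-1 and smax1-2 and overlapped WT. It fell against smxl5-1 by 0.99 (SE 0.216, adjusted p = 0.0393). That call was lost without WT replicate 1, any library of smxl5-1 or smax1-2, or double-mutant replicate 1 or 3 (adjusted p from 0.0551 to 0.137).

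XTH31 and XTH32 form the branch of the family that is known to include xyloglucan-hydrolysing enzymes, and both had calls in the opposite direction to the genes above. XTH31 (AT3G44990, chromosome 3, 16446935 to 16448844) was at 104, 124 and 124 FPKM in WT libraries and 126, 130.4 and 139 for smax1-2. It was at 177, 238 and 186 FPKM in smxl5-1 libraries and 237, 212 and 191 for the double mutant. Both genotypes that carry smxl5-1 were above both that do not, in every library. It rose in smxl5-1 against WT by 0.76 (SE 0.125, adjusted p = 0.0412), the only member called there. It rose in the double mutant by 0.86 against WT (adjusted p = 0.0109) and by 0.69 against smax1-2 (adjusted p = 0.0268). The difference between the double mutant and smxl5-1 was 0.10 (SE 0.125). The call for the double mutant against WT was lost only without WT replicate 1 (adjusted p = 0.0538), among the 12 libraries left out in turn. The call for smxl5-1 against WT was lost with quantile normalization, with median-of-ratios scaling and without any library other than double-mutant replicates 1 and 3 (adjusted p from 0.0636 to 0.171). That against smax1-2 was lost with quantile normalization and without double-mutant replicate 1 or 2 or any smax1-2 library (adjusted p from 0.0707 to 0.104).

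XTH32 (AT2G36870, chromosome 2, 15472607 to 15474828) was at 41.0, 40.8 and 40.5 FPKM in WT libraries and 43.1, 41.1 and 42.8 for the double mutant. It was at 30.4, 34.9 and 31.8 FPKM in smxl5-1 libraries and 31.3, 30.5 and 34.3 for smax1-2. WT and the double mutant were higher than smxl5-1 and smax1-2 in every library. Relative to smxl5-1 the double mutant was higher by 0.38 (SE 0.0732, adjusted p = 0.0263) and relative to smax1-2 by 0.39 (adjusted p = 0.0299). The smxl5-1 difference of -0.32 from WT was not called (adjusted p = 0.0980). The call against smxl5-1 was lost without smxl5-1 replicate 1 or 3 or any double-mutant library (adjusted p from 0.0554 to 0.0940). That against smax1-2 was lost with quantile normalization and without any library of WT or the double mutant, or smax1-2 replicate 1 or 2 (adjusted p from 0.0531 to 0.117).

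XTH27, known from the vessel cells of leaf veins, was at 113, 118 and 117 FPKM in WT libraries, 104, 109 and 118 for smxl5-1, 108, 92.1 and 82.1 for the double mutant and 62.3, 80.3 and 68.6 for smax1-2. All smax1-2 libraries were below the 9 others. The F test over genotypes called it (adjusted p = 0.0269), while smax1-2 against WT, at -0.72, was not called (adjusted p = 0.0980). The difference of 0.65 for smxl5-1 against smax1-2 (adjusted p = 0.0565) was called with effective lengths (adjusted p = 0.0411). The remaining XTH genes gave no call. XTH9 was at 83.1 to 227 FPKM, XTH28 at 35.0 to 44.0 FPKM, XTH30 at 10.9 to 18.3 FPKM and XTH14 at 5.60 to 18.4 FPKM over all libraries. For XTH9, all smxl5-1 libraries were below the 9 others, though its highest (111.8 FPKM) and the lowest of the double mutant (112.8 FPKM) were close. Its log2 difference of -0.69 for smxl5-1 against WT was not called (adjusted p = 0.175). XTH5 was at 3.73 to 6.12 FPKM where listed, and XTH33 was at 2.15 to 35.4 FPKM where listed, its highest value being 16.96 FPKM with effective lengths.

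**Figure D3:**
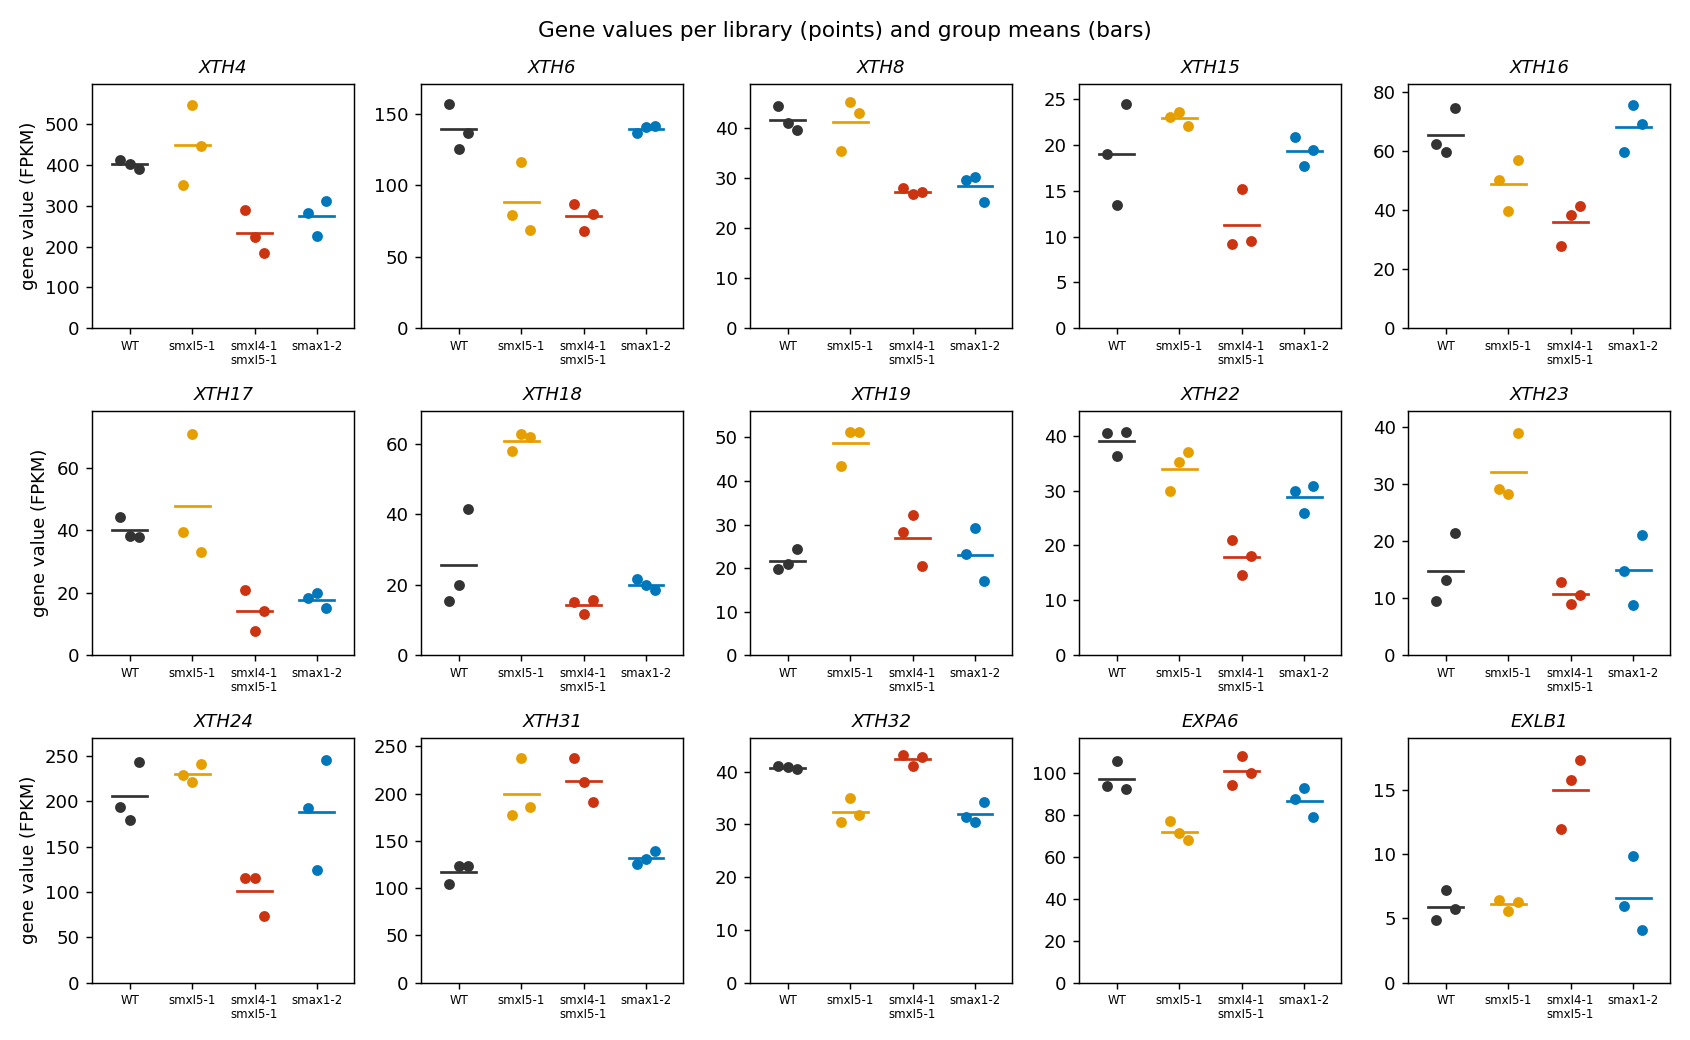
Gene value in FPKM per library (points) and the mean of the 3 libraries of each genotype (bars) for 15 members, 13 XTH genes and 2 expansins. Each panel has its own linear axis from 0. XTH18, XTH19 and XTH23 are highest in the 3 smxl5-1 libraries, XTH22 is lowest in the 3 double-mutant libraries, and XTH31 is high in both genotypes that carry smxl5-1.

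Among the expansins, EXPA6 and EXLB1 had calls. EXPA6 (AT2G28950, chromosome 2, 12431338 to 12433796) was at 93.7, 106 and 92.4 FPKM in WT libraries and 77.1, 71.3 and 68.0 for smxl5-1. It was at 94.2, 108 and 100.1 FPKM in the double mutant and 87.6, 92.8 and 79.2 for smax1-2. With effective lengths the value of double-mutant replicate 2 is 89.8 FPKM. The smxl5-1 libraries were the lowest of the 12. The double mutant was higher than smxl5-1 by 0.48 (SE 0.0891, adjusted p = 0.0230). The smxl5-1 difference of -0.43 from WT was not called (adjusted p = 0.0817), and with quantile normalization it was -0.51 (adjusted p = 0.0449). The call against smxl5-1 was lost without replicate 2 or 3 of smxl5-1 or of the double mutant (adjusted p from 0.0508 to 0.0779).

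EXLB1 (AT4G17030, chromosome 4, 9581562 to 9583290), the expansin-like B gene, was low. It was at 4.87, 7.19 and 5.72 FPKM in WT libraries, 6.40, 5.62 and 6.29 for smxl5-1, 12.0, 15.8 and 17.3 for the double mutant and 5.94, 9.83 and 4.09 for smax1-2. Each double-mutant library was above the 9 others. With effective lengths the value of smxl5-1 replicate 3 is 3.93 FPKM. It rose against smxl5-1 by 1.16 (SE 0.256, adjusted p = 0.0407). The differences of 1.21 from WT (adjusted p = 0.0602) and 1.13 from smax1-2 (adjusted p = 0.0683) were not called, and both were called with effective lengths (adjusted p = 0.0366 and 0.0342). Without smax1-2 replicate 2 or 3 the difference from WT was called (adjusted p = 0.0224 and 0.0328), and without smax1-2 replicate 2 that from smax1-2 was 1.42 (adjusted p = 0.0213). The call against smxl5-1 was lost without any library of WT or smxl5-1, double-mutant replicate 2 or 3, or smax1-2 replicate 1 (adjusted p from 0.0567 to 0.143).

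EXPB1, a beta-expansin, had the same order of genotypes with no call. It was at 7.98, 4.77 and 6.56 FPKM in WT libraries, 7.92, 7.02 and 5.98 for smxl5-1, 14.2, 16.2 and 20.2 for the double mutant and 7.67, 13.1 and 4.73 for smax1-2. The double mutant was above all others, by 1.28 against WT (adjusted p = 0.0856) and 1.16 against smxl5-1 (adjusted p = 0.0689). Without smax1-2 replicate 2 or 3 it was called against WT (adjusted p = 0.0348 and 0.0401) and against smxl5-1 (adjusted p = 0.0333 and 0.0372). EXPB3, the other beta-expansin, was at 66.9, 87.6 and 79.7 FPKM in WT libraries, 57.9, 68.9 and 53.6 for smxl5-1, 76.6, 91.0 and 88.5 for the double mutant and 70.4, 96.4 and 67.4 for smax1-2. It gave no call, and its lowest double-mutant library was above all of smxl5-1.

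EXPA1, the most abundant expansin and known from guard cells, was at 299, 313 and 297 FPKM in WT libraries and 244, 297.01 and 232 for smxl5-1. It was at 240.03, 232 and 232 FPKM in the double mutant and 210.4, 219 and 217 for smax1-2. The double mutant and smax1-2 were below WT in every library. Neither difference was called, at -0.37 for the double mutant (adjusted p = 0.0920) and -0.49 for smax1-2 (adjusted p = 0.168). Without smxl5-1 replicate 2, which lies far from the other smxl5-1 libraries for this gene, both were called (adjusted p = 0.0120 and 0.0212). The sum over the 21 expansins was 851 to 904 FPKM in WT, 730 to 917 in smxl5-1, 770 to 799 in the double mutant and 703 to 823 in smax1-2.

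Other alpha-expansins gave no call. EXPA8 was at 71.8 to 87.0 FPKM in WT and at 38.2 to 53.6 FPKM in the double mutant (log2 difference -0.75, adjusted p = 0.139, and 0.0381 without smxl5-1 replicate 2). EXPA9 was at 11.2 to 15.2 FPKM in WT and at 22.1 to 25.9 FPKM in the double mutant (0.80, adjusted p = 0.0854, and 0.0409 without smxl5-1 replicate 3). EXPA4 was at 36.7 to 96.0 FPKM over all libraries, EXPA3 at 41.2 to 83.7 FPKM and EXPA15 at 19.7 to 59.5 FPKM. EXPA5, which is known to act in brassinosteroid-driven growth, was at 23.7 to 40.6 FPKM, EXPA10 at 23.0 to 34.98 FPKM and EXPA11 at 23.6 to 61.9 FPKM. EXPA14, EXPA16, EXPA17 and EXPA20 had means over the 12 libraries of 4.88, 3.47, 8.93 and 3.997 FPKM. Of these, the largest value of EXPA17 is 20.8 FPKM with effective lengths and 38.1 FPKM with plain lengths. EXLA2 was at 5.58 to 21.5 FPKM, or 5.56 to 14.3 FPKM with effective lengths.

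EXLA1 was listed in only 7 libraries. Its values were 25.9 and 27.0 FPKM in WT replicates 1 and 2, 26.0, 25.4 and 37.6 FPKM in smxl5-1, 16.2 FPKM in double-mutant replicate 1 and 20.8 FPKM in smax1-2 replicate 1. It was not listed in the other 5 libraries, which the fit took as 0. No comparison called it, with an adjusted p of 0.300 for the double mutant against smxl5-1 and 0.437 for smxl5-1 against smax1-2, the comparisons in which its libraries do not overlap.

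**Figure D4:**
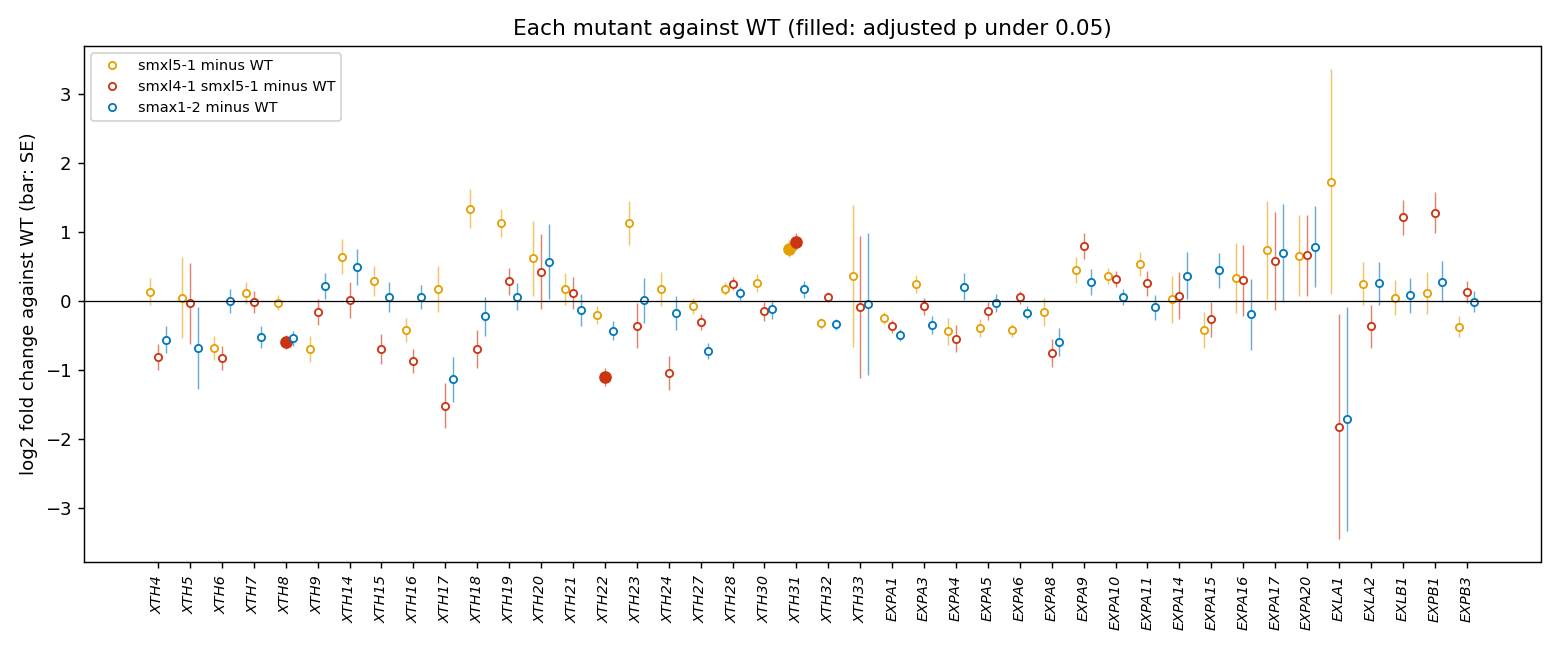
Log2 fold change of each tested member in smxl5-1, the double mutant and smax1-2 minus WT, on log2(FPKM + 1). Points are estimates from 3 libraries a group, bars are standard errors and filled points have an adjusted p under 0.05. The 4 filled points are XTH31 in smxl5-1 and XTH8, XTH22 and XTH31 in the double mutant. The 3 series share the WT libraries, and the values of EXLA1 rest on libraries that do not list it.

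Counted by libraries that do not overlap, 21 of the 42 members separated the double mutant from WT (9 higher, 12 lower), against 19.1% of all genes. The same count was 21 for the double mutant against smxl5-1 (7 higher, 14 lower) and 20 for it against smax1-2 (11 higher, 9 lower), against 20.4% and 17.9% of all genes. It was 14 for smxl5-1 against WT (8 higher, 6 lower) and 12 for smax1-2 against WT (2 higher, 10 lower), against 19% and 17.3%. For smxl5-1 against smax1-2 it was 22 (15 higher, 7 lower), against 18%. The members thus separated more often than genes in general in each comparison, by counts alone. They were chosen with earlier results of these data known, so the larger share is no independent result about these families.

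In smxl5-1, replicate 2 held the highest value of the group for 23 of the 42 members, against 34.3% of all genes. In the double mutant, replicate 1 held it for 23 of 42, against 30.2% of all genes. The part of these libraries in the differences is given by the values without them, above.

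Genes that make the substrate or set the conditions for these proteins gave no call. None of 9 tested genes of xyloglucan synthesis and trimming, such as XXT2 and XYL1, was called in any comparison or by the F test, nor was any of 9 genes of primary wall cellulose synthesis such as CESA1. The plasma membrane proton pumps AHA1 and AHA2, which acidify the wall, were not called either. Of 17 further XTH and expansin genes, 7 were listed in any library, 6 were tested and none was called. The double mutant against smxl5-1 was the comparison with the most member calls. There all 9 xyloglucan genes had values below 0 (median log2 difference -0.17), beside -0.01 over all genes. The same held for 8 of the 9 cellulose genes (median -0.27). In smxl5-1 against WT, 7 of 9 xyloglucan genes and 8 of 9 cellulose genes were above 0 (medians 0.19 and 0.17), beside 0.07 over all genes.

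Short motifs in the 250 bases before each start were counted in all 27443 promoters of TAIR10.1. The G-box CACGTG, on both strands, was in 6.49% of all promoters and in 0 of the 45 members. The brassinosteroid response element CGTGTG was in 5.37% of all promoters and in 7 members (XTH8, XTH23, XTH25, EXPA1, EXPA2, EXPA6 and EXLA2). The auxin response element TGTCTC was in 10.9% of all promoters and in 4 members, and the W-box core TTGACC in 12.2% and in 7 members, both strands counted. The TATA box TATAAA, on the gene's strand, was in 32.9% of all promoters and in 16 members. Of the promoters printed above, that of XTH17 holds it, at -122 to -117. These are matches of letters, and nothing follows from them about binding.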

How the data were processed

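Each deposited table holds 1 library, with 1 line per transcript piece assembled in it, its length, the length of the matched reference transcript and its abundance in FPKM, per the file headers. The headers also name lower and upper confidence bounds of that FPKM and a coverage, which were not used for the results here. The submitters' processing notes name TopHat2 2.0.14 and TAIR10. For the assembler, its settings, strandedness and annotation, nothing is given in the sources used here. The tables analysed hold no read counts, so depth per library is unknown. They hold 27825 to 31919 pieces and a value for 18628 to 19022 genes a library.

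A gene's value is the sum, over its pieces, of FPKM times the piece's length (at most the reference length) divided by the reference length, because a short piece has a high FPKM. Only pieces with a class code (the relation to the reference) of =, c, j, e or o were used. These were 345442 of 353616 pieces (97.7%). By summed value the share used was lower, with a piece that has no reference length counted at its full FPKM. It was 71.3% to 77.9% in WT libraries and 72.6% to 90.5% for smxl5-1. For the double mutant it was 70.6% to 87.2%, and for smax1-2 71.3% to 82.3%. A gene with no piece in a library was set to 0. Genes reaching 1 FPKM in 3 or more libraries, 19656 in all, were tested on log2(FPKM + 1) of the deposited values with limma 3.58.1 (limma-trend, R 4.3.3), in 1 fit of 12 libraries and 4 groups with 6 comparisons. P-values were adjusted by Benjamini-Hochberg over all genes tested, called under 0.05. The plan named counts first and this test if the files held FPKM.

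The alternatives were effective lengths (a fragment length of 200 ± 80 bases assumed), a plain sum of FPKM, a pseudocount of 0.1, no filter, quantile normalization, median-of-ratios scaling, the replicate number as a block, and each library left out in turn. The median SD within groups on the log2 scale was 0.24 for plain length, 0.19 for effective length and 0.66 for the plain sum. The fit was tested on simulated data. Values in every library are printed for members called in any test, for the 3 highest XTH genes and 3 highest expansins, and for members with a log2 fold change of at least 1 and no overlap between libraries. Replicate numbers are those of the sample titles; the names of the deposited tables exchange numbers 1 and 2 of the double mutant. The members and lists were chosen with earlier results of these data known. Promoters and motifs were read from RefSeq's TAIR10.1 with Python 3.11.15 and Biopython 1.88.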

Additional observations from a re-analysis of the deposited data

How the results depend on the processing

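No member changed direction where it was called, under any of the alternatives run. Of the 20 calls of a member in a pair of genotypes, 20 held with effective lengths, 20 with a pseudocount of 0.1, 20 with no filter, 17 with median-of-ratios scaling, 13 with quantile normalization and 0 with a plain sum of FPKM, which does not correct for the length of a piece. Effective lengths gained 11 calls. With 1 library left out, 3 of the 20 held in all 12 fits: XTH18 and XTH22 in the double mutant against smxl5-1, and XTH22 against WT. The number of members called in smxl5-1 against WT was 1 and became 3 with effective lengths (126 of all genes against 69), 0 with the plain sum, 0 with median-of-ratios scaling, 1 in the lower direction with quantile normalization, and 0 to 2 with 1 library left out. For the double mutant against WT it was 3 and became 7 with effective lengths (350 of all genes against 223), 0 with the plain sum and 1 to 8 with 1 library left out. For the double mutant against smxl5-1 it was 11 and became 0 with the plain sum and 2 to 12 with 1 library left out; with effective lengths 1069 of all genes were called against 588. For the double mutant against smax1-2 it was 5 (2 higher) and became 0 with the plain sum, 1 (lower) with quantile normalization, 3 (2 higher) with median-of-ratios scaling and 0 to 5 with 1 library left out. For smax1-2 against WT the count of 0 became 0 to 1 with 1 library left out, and for smxl5-1 against smax1-2 it became 3 with effective lengths and 0 to 1 with 1 library left out. The F test's count of 9 became 0 with the plain sum and 2 to 9 with 1 library left out. With the plain sum the counts over all genes fell to between 5 and 80. Beyond the length correction, the cause of these moves was not tested.

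By correlation, the replicate numbers in the labels showed no pairing of the samples. Deviations from the group means in same-numbered libraries correlated at -0.10 to 0.07 over 18 pairs of libraries, and 1 of 12 libraries correlated best with its own number. The names of the deposited tables exchange numbers 1 and 2 of the double mutant against the sample titles, and the titles were followed. With the numbers of the table names the correlations were -0.08 to 0.17, and 5 of 12 libraries correlated best with their own number. Those numbers showed no clear pairing either. Low correlations over all genes cannot exclude that same-numbered replicates share a sowing. With the replicate block the number of members called was 0 in smxl5-1 against WT, 2 in the double mutant against WT, 0 in smax1-2 against WT, 4 in the double mutant against smxl5-1, 1 against smax1-2, 0 in smxl5-1 against smax1-2 and 3 by the F test. Of the 20 calls, 7 held with the block, all of the double mutant. They were XTH18, XTH22, XTH23 and EXPA6 against smxl5-1, XTH22 and XTH31 against WT, and XTH16 against smax1-2. A replicate block on the table-name numbers, added after the data were seen, gave 0, 3, 0, 6, 2 and 0 members in those 6 comparisons and 4 by the F test, and 10 of the 20 calls held. Over all genes the block called 25, 125, 4, 225, 153 and 20 genes in those 6 comparisons and 158 by the F test, against 69, 223, 7, 588, 304, 44 and 405 without it.

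Depth is unknown, so no floor or counting interval is given for a gene. Confidence bounds of the FPKM were deposited for each piece, but no interval was worked out from them for a gene's value. A gene set to 0 is only one with no piece listed, which concerns XTH5, XTH25, XTH33, EXPA2, EXPA20, EXLA1 and EXLA3.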

Other observations

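Several low members had 1 library far from the rest of its group or of all libraries. These values were smaller with effective in place of plain lengths. EXPA17, known from lateral root emergence, was at 38.1 FPKM in smax1-2 replicate 1 and at 3.18 to 12.2 FPKM in the 11 other libraries, and with effective lengths the first is 20.8 FPKM. XTH33 was at 35.4 FPKM in smxl5-1 replicate 1, or 16.96 FPKM with effective lengths, and was not listed in smxl5-1 replicate 3. EXLA2 was at 21.5 FPKM in smax1-2 replicate 3 and at 8.03 and 8.72 FPKM in its other replicates, and with effective lengths the first is 14.3 FPKM.

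The histone H2B gene AT3G45980 lies next to EXLA1 in the TAIR10.1 annotation. It was at 159 to 224.94 FPKM in the 7 libraries that list EXLA1 and at 204 to 262 FPKM in the 5 that do not.

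Seed storage protein genes, of which SESA2 and CRA1 were the only ones listed of 6, summed to 0 FPKM in WT, 0 to 3.85 in smxl5-1, 2.69 to 13.4 in the double mutant and 0 to 45.7 in smax1-2.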
